A study of Homo sapiens with 4 samples.

Results

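The genes described here are 52 genes of mitotic entry, the spindle checkpoint, the kinetochore and cytokinesis, chosen by symbol and without TPX2, AURKA and the kinesins. All 52 were found among the 18134 genes of the deposited expression table, and all 52 passed the filter on low counts that left 14048 genes for testing. The libraries came from PC9, an established human lung adenocarcinoma line, infected with a lentivirus carrying a hairpin against TPX2 (shTPX2) or a negative control hairpin (shNC) and kept under antibiotic selection. Each group had 2 libraries, numbered 1 and 2. The study lists 1 hairpin against TPX2 and 1 control hairpin, and the labels do not name them. An effect of TPX2 loss and another effect of the hairpin therefore cannot be told apart. The deposited columns of group means fit means over 3 shNC and 4 shTPX2 libraries, so the 2 libraries per group may be a subset of those in the study's own comparison, and any others were not analysed here. The comparison asks how the transcriptome of the TPX2 knockdown group differed from that of the control group.

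Entry into mitosis is driven by CDK1 bound to cyclin B, which the kinases WEE1 and PKMYT1 hold inactive and the CDC25 phosphatases release. The spindle checkpoint then delays anaphase until the kinetochores, the protein assemblies on the centromeres, are attached to microtubules. The mRNAs of many, though not all, of these proteins accumulate in G2 and mitosis. In bulk RNA the levels of such mRNAs follow both the share of cells in those phases and the amount per cell. Bulk libraries cannot tell these apart. TPX2 is a spindle assembly factor that activates the kinase Aurora A, and its mRNA follows the same phase of the cycle.

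Many promoters of G2/M genes carry a cell cycle homology region (CHR), with the letters TTTGAA or TTCGAA, and CCAAT boxes, which bind the factor NF-Y. RefSeq promoter windows (GRCh38.p14, 250 bases before to 50 bases after a gene start) were at hand for 44 of the 52 members, the others being WEE1, PKMYT1, FOXM1, BUB3, TTK, UBE2C, BIRC5 and CENPM. With both strands searched, the CHR letters stood in a window of 31 of the 44 members (70.5%) and a CCAAT box in 34 (77.3%), with 26 (59.1%) holding both. Among the 13609 genes of the deposited table with a window the shares were 16.5%, 42.1% and 8.57%. Over all 35116 windows of this length, 16.4% held the CHR letters and 34.6% a CCAAT box. The 120 bases before the start of 8 members are shown, 6 of them members whose level was far apart between the shNC libraries or that start mitosis (CDK1, CCNB2, PLK1, NEK2, CENPA and PTTG1) and 2 that were higher in shTPX2 at an unadjusted p under 0.05 in edgeR (ZWINT and MYBL2). Where a member had several windows, the stretch with the most matches to these motifs was chosen for display. The stretches shown therefore favour the motifs. Capitals mark the CHR letters and CCAAT boxes on either strand, and a pair of CCAAT boxes on opposite strands overlap in PTTG1.
CDK1, chr10:60778358-60778477, plus strand: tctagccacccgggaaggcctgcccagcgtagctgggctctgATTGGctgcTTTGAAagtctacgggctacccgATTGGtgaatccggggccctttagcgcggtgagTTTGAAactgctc
CCNB2, chr15:59105026-59105145, plus strand: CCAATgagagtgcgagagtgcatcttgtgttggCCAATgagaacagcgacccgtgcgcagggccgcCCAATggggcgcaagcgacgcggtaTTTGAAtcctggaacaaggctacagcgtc
PLK1, chr16:23678769-23678888, plus strand: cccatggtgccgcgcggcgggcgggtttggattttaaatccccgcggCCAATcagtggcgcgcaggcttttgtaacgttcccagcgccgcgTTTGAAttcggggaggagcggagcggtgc
NEK2, chr1:211675622-211675741, minus strand: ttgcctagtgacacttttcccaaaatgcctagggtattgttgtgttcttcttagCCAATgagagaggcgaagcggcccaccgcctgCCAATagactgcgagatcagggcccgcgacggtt
CENPA, chr2:26785936-26786055, plus strand: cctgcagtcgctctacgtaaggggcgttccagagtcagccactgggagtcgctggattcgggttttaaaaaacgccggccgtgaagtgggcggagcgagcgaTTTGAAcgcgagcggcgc
PTTG1, chr5:160421735-160421854, plus strand: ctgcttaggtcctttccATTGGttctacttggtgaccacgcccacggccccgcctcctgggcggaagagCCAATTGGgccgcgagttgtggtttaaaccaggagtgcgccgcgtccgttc
ZWINT, chr10:56361260-56361379, minus strand: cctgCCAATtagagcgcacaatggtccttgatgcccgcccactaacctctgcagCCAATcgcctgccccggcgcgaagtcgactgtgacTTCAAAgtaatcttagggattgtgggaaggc
MYBL2, chr20:43666994-43667113, plus strand: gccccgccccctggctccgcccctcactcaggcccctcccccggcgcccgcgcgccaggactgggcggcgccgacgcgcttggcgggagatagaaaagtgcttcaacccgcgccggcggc
The CHR letters of CCNB2 and PLK1 began 29 bases before the start, and those of CENPA 18 bases before it. CDK1 had the letters at 69 and at 13 bases before the start of the window shown, while the stretch of MYBL2 held neither motif. The CDK1 stretch lies inside the gene, which spans 60778331 to 60794852, and so precedes an alternative start. The ZWINT stretch also precedes an alternative start, since it overlaps the gene, which begins at 56361273 on the minus strand. The other CDK1 window held no match in the 120 bases before its start. Such matches describe the letters of these windows and no binding was measured.

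The libraries held 20906441 to 21972583 expected counts each. The 7 epithelial markers examined summed to 20200 to 27700 TPM per library, whereas the 5 fibroblast markers summed to 5.9 to 12.4 TPM, the 5 leukocyte markers to 9.26 to 32.2 TPM and the 4 endothelial markers to 19.9 to 36.5 TPM. Among the last 3 lists KDR, DCN and COL3A1 were at or near 0, whereas the endothelial marker CDH5 reached 30.51 TPM. Some of these markers moved with the control libraries that the results turn on. The epithelial sum was lowest in shNC 2, at 20200 TPM against 24200 to 27700 TPM in the others, with KRT19 at 1791.74 TPM in shNC 2 and 3045.84 TPM in shNC 1. The leukocyte sum was highest in shNC 2, where CD14 gave 27.3 TPM, and PECAM1, an endothelial marker, was also highest there with 14.37 TPM against 4.2 to 5.92 TPM. The part of these differences in the results was not tested. TPX2 itself reached 55.01 TPM in library shNC 1 and 111.85 TPM in library shNC 2, while the shTPX2 libraries held 43.35 and 43.77 TPM. Here and below, a value after the ± sign is a standard error derived from the F statistic of the edgeR test. The log2 fold change, from edgeR throughout, was −0.81 ± 0.32 for TPX2. The edgeR test gave it an unadjusted p of 0.0403 and an adjusted p of 0.618. Without shNC 2 the value was −0.24, with an unadjusted p of 0.251 in edgeR. Without shTPX2 1 the unadjusted p was 0.0804 and without shTPX2 2 it was 0.0897 in edgeR, with values of −0.82 and −0.78.

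The 52 mitotic genes were fitted on both sides of 0 between the TPX2 knockdown and control libraries. The median log2 fold change over the members was 0.05, with 31 fitted higher and 21 lower in shTPX2, compared to a median of −0.01 and 48.9% fitted higher over all tested genes. With library size alone as the scale, the median of the members was −0.03. The quasi-likelihood test of edgeR called 0 members at an adjusted p under 0.05, where it also called 0% of all genes. At an unadjusted p under 0.05 it gave 4 members higher and 0 lower, against 3.13% and 4.9% of all genes. The 4 were ZWINT, CENPM, MYBL2 and FOXM1. At the study's criteria (limma voom, unadjusted p up to 0.1 and log2 fold changes of 0.3 or more in either direction), BIRC5 and CENPN joined them, which made 6 members higher and 0 lower, against 6.24% and 7.99% of all genes. DESeq2 called 1 member at an adjusted p under 0.05, ZWINT, where it called 0.235% of all genes higher and 0.555% lower.

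**Figure D1:**
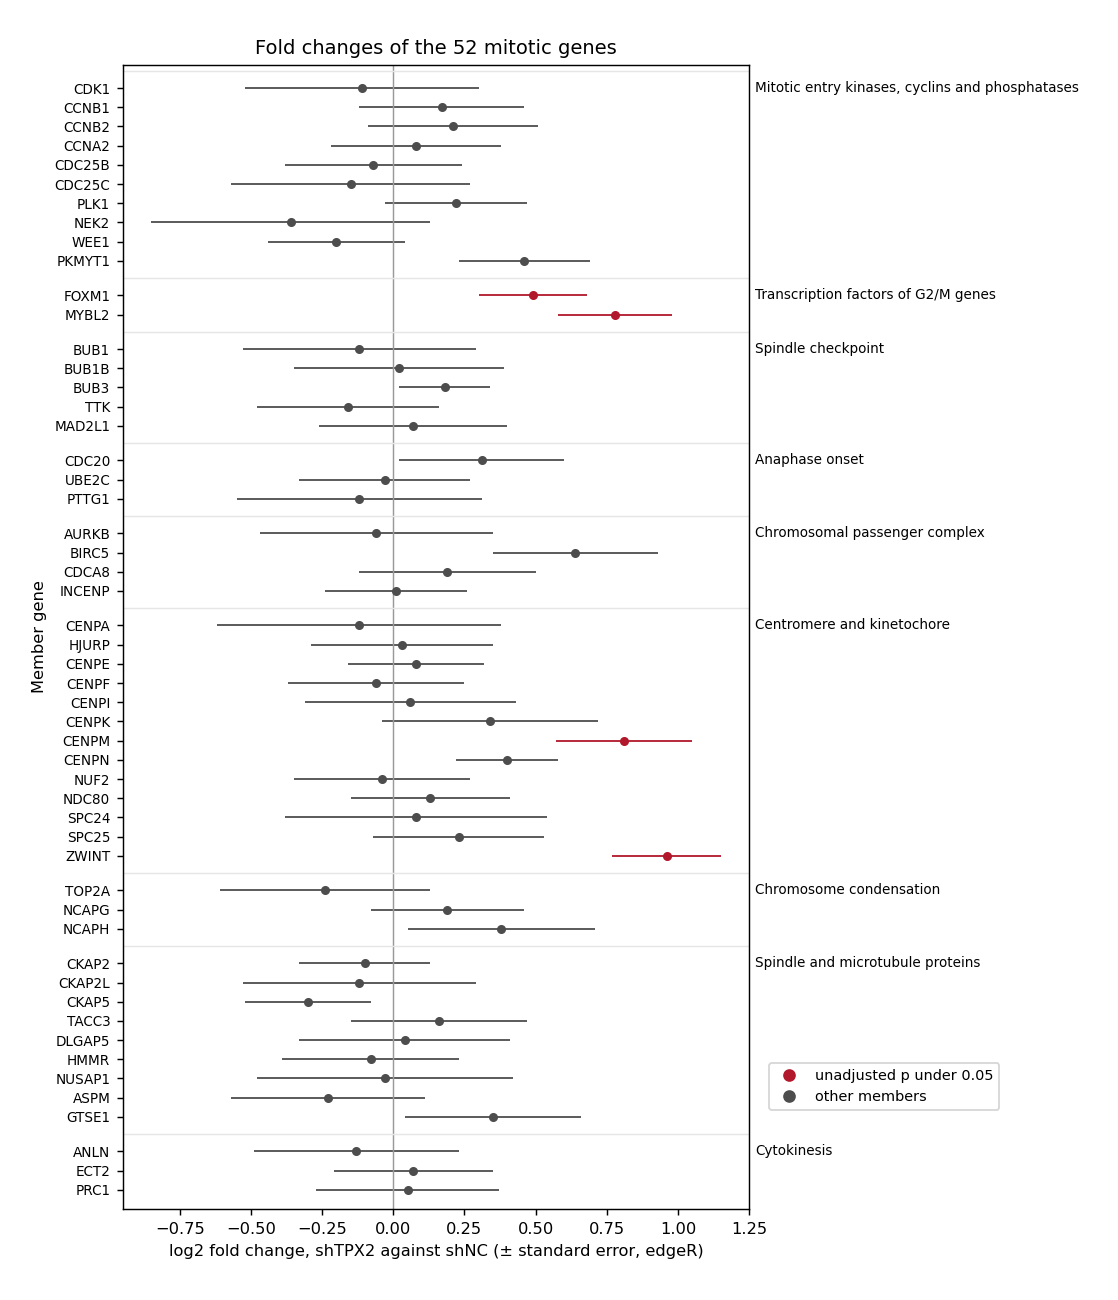
Log2 fold change of each member in shTPX2 against shNC from edgeR (x axis) with its standard error as the bar, grouped by role, from 2 libraries per group. Red points are the 4 members at an unadjusted p under 0.05 (ZWINT, CENPM, MYBL2 and FOXM1), and most other bars cross 0.

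What separated the libraries was the pair of controls. Measured as the deviation of log2 CPM from the mean of the 4 libraries, the median member stood at −0.54 in shNC 1 and at 0.37 in shNC 2. In shTPX2 1 it stood at 0.11 and in shTPX2 2 at 0.04. The median deviation of all tested genes was between 0 and 0.01 in every library. shNC 1 was the lowest library for 49 of the 52 members, and shNC 2 was the highest for 39. How often this held over all tested genes was not counted. Both shTPX2 libraries lay between shNC 1 and a higher shNC 2 for 38 members, a pattern that 8.65% of all tested genes had, and 8.54% had it with the shNC libraries exchanged. The gap between the shNC libraries was wider than the difference of the group means for 45 members, compared to 59% of all genes.

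shNC 2 exceeded shNC 1 in 50 of the 52 members (50.3% of all genes), by a median of 0.91 on the log2 CPM scale. BUB3 and CENPN were the exceptions, with gaps of −0.06 and −0.03. Between the shTPX2 libraries the median difference was −0.08, with library 2 above library 1 in 19 members. The gap between the shNC libraries was widest for NEK2 (1.69), a kinase that splits the centrosomes, CENPA (1.57), the centromeric histone, and NUSAP1 (1.54), a microtubule-bundling protein. By role, the median gap was 0.88 for the entry kinases, cyclins and phosphatases, 0.95 for the checkpoint, 0.8 for the kinetochore and 1 for cytokinesis. It was 0.22 for the transcription factors FOXM1 and MYBL2.

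**Figure D2:**
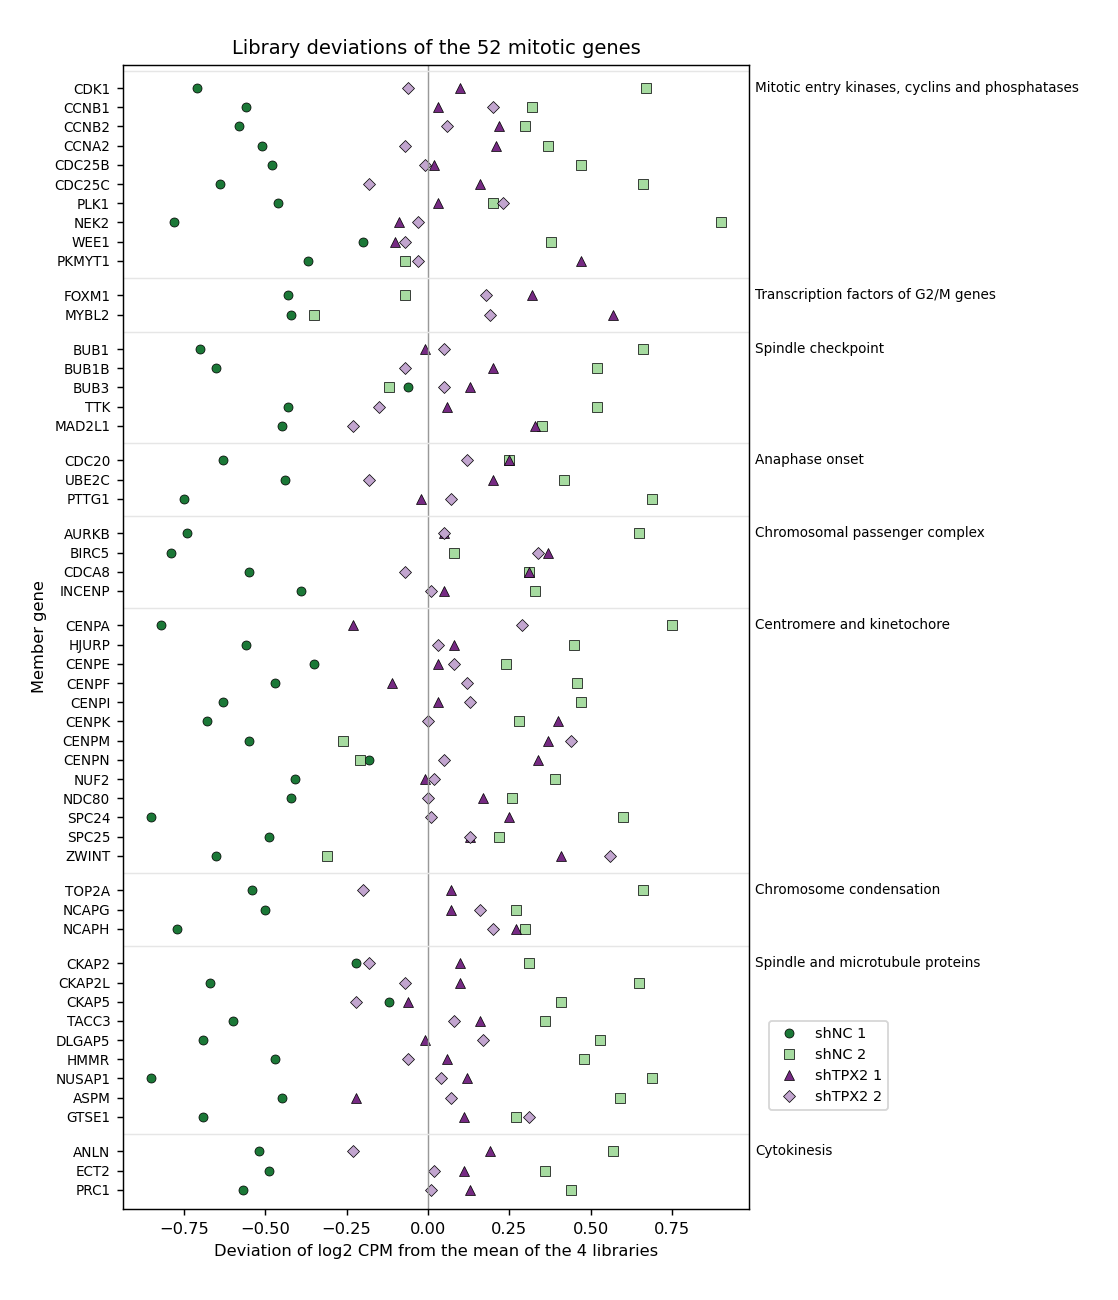
Deviation of each member's log2 CPM from its mean over the 4 libraries (x axis), with 1 marker per library and the genes grouped by role. The circles of shNC 1 lie at the left for 49 of 52 members and the squares of shNC 2 at the right for 39, with the shTPX2 markers between them for 38 members. Of all tested genes 8.65% had that last order, and shares for the other counts were not taken.

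The fitted direction depended on which control library was used. With shNC 1 as the only control, the median log2 fold change of the members was 0.64 and 31 members passed an unadjusted p under 0.05 as higher and 0 as lower in edgeR, against 3.63% and 3.47% of all genes. With shNC 2 as the only control, the median was −0.35, and 14 members passed as lower and 3 as higher, against 8.02% and 6.43% of all genes. At the study's criteria, 42 members were higher and 0 lower against shNC 1 alone, where 5.98% and 7.16% of all genes passed, and 3 were higher and 20 lower against shNC 2 alone, where 10.7% and 13.6% passed. Against shNC 1 alone the groups did not overlap for 51 members, all higher in shTPX2, compared to 33.1% of all genes higher and 36.3% lower. Against shNC 2 alone they did not overlap for 8 members higher and 39 lower, compared to 37.4% and 38.6% of all genes.

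The fitted sign was opposite for 43 members, higher against shNC 1 and lower against shNC 2, which held for 17.8% of the genes tested in both fits. In 8 of these, CDK1, NEK2, BUB1, PTTG1, AURKB, CENPA, CKAP2L and NUSAP1, the unadjusted p was under 0.05 both ways, as it was for 0.261% of those genes. MYBL2, ZWINT and CENPM were higher at an unadjusted p under 0.05 against either control, as were 0.967% of those genes. Without shTPX2 1, 1 member (ZWINT) was higher and 0 lower, against 2.31% and 4.03% of all genes, and without shTPX2 2 there were 3 higher (ZWINT, MYBL2 and PKMYT1) and 0 lower, against 1.46% and 2.14%. In the single-control fits the lone control is assumed to vary like the pair of shTPX2 libraries. The opposite signs follow from the gap between the same control libraries and are not a separate finding.

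**Figure D3:**
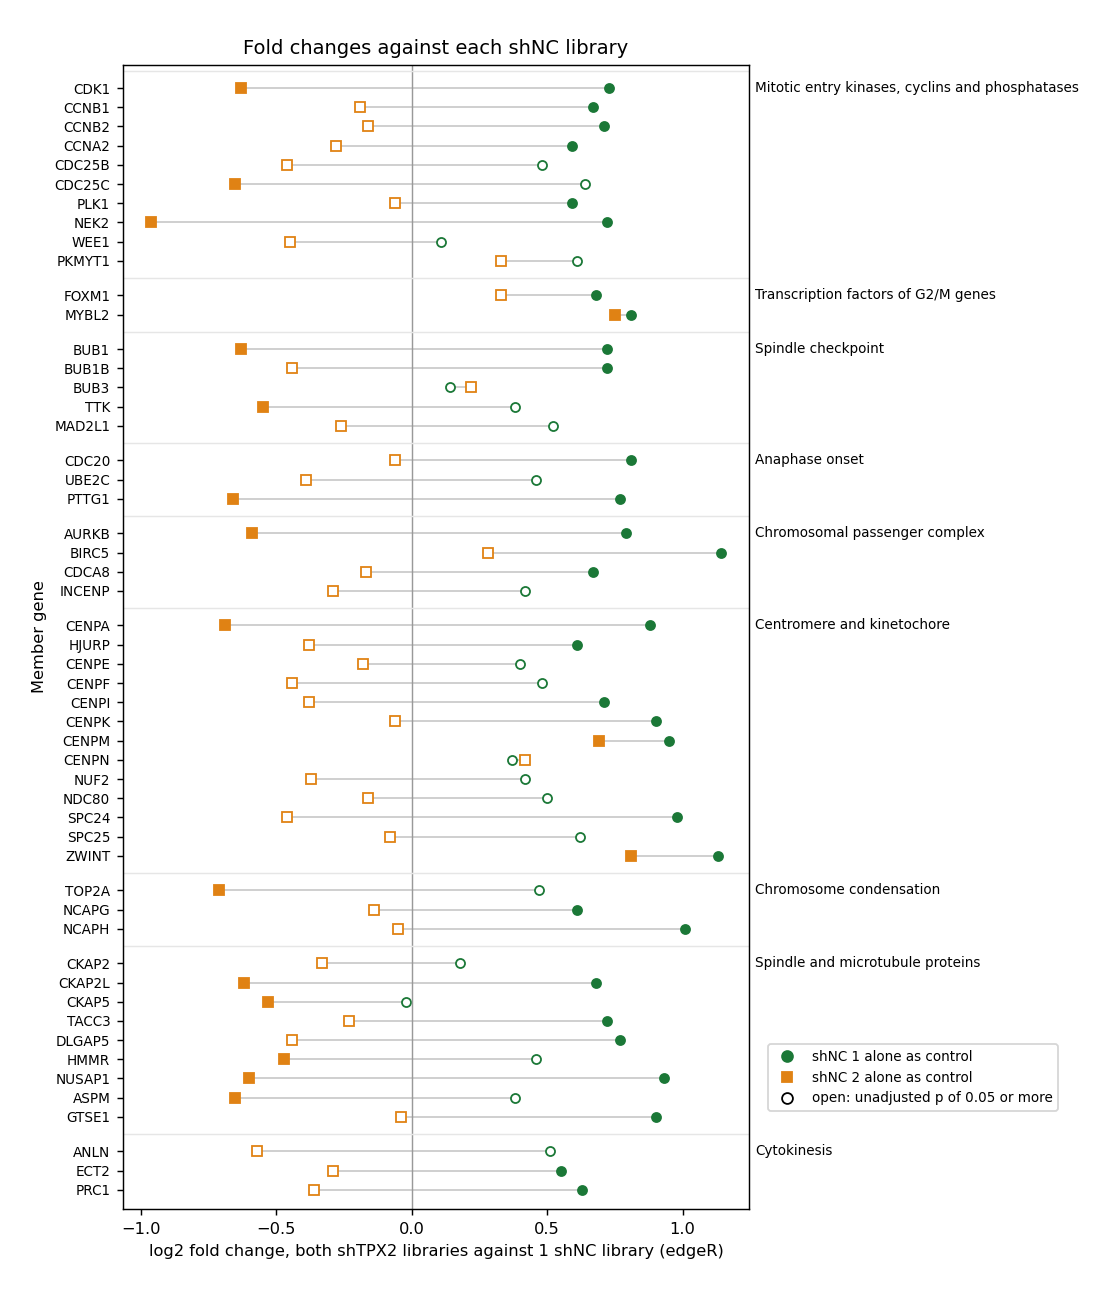
Log2 fold change of both shTPX2 libraries against shNC 1 alone (green circles) or shNC 2 alone (orange squares) for each member, from edgeR, with filled markers at an unadjusted p under 0.05. The line between the markers crosses 0 for 43 of the 52 members, and MYBL2, ZWINT and CENPM have both markers filled on the right.

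Of the kinases, cyclins and phosphatases of mitotic entry, 0 of 10 passed an unadjusted p under 0.05 in edgeR, and 5 were fitted higher and 5 lower. CDK1, the kinase that starts mitosis, stood at 89.84 TPM in library shNC 1 and 239.64 TPM in library shNC 2, while shTPX2 1 held 144.4 TPM and shTPX2 2 held 133.31 TPM. The fitted log2 fold change was −0.11 ± 0.41, while that against shNC 1 alone was 0.73 and that against shNC 2 alone −0.63. The groups overlapped, with both shTPX2 values between the control values. Its cyclins also had both shTPX2 values between the control values, with log2 fold changes of 0.17 for CCNB1, 0.21 for CCNB2 and 0.08 for CCNA2. CCNB1 ranged from 75.36 TPM in shNC 1 to 142.58 TPM in shNC 2, with 104.16 and 120.71 TPM in shTPX2.

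NEK2 had the lowest fitted value of all members, a log2 fold change of −0.36 ± 0.49. It stood at 17.55 and 57.97 TPM in the control libraries and at 25.97 and 27.76 TPM in the knockdown libraries, with both knockdown values between the control values. PLK1, which phosphorylates many mitotic proteins, stood at 65.15 and 106.22 TPM in the control libraries and at 84.13 and 99.22 TPM in the knockdown libraries (log2 fold change 0.22 ± 0.25). The inhibitory kinases took different positions. WEE1 stood at 12.93 and 19.93 TPM in the control libraries and at 12.76 and 13.39 TPM in the knockdown libraries, a log2 fold change of −0.20 ± 0.24. Its lower knockdown value was under both controls in TPM, whereas both lay between the controls on the log2 CPM scale. PKMYT1 stood at 31.52 and 39.70 TPM in the control libraries and at 52.03 and 37.79 TPM in the knockdown libraries, and its log2 fold change of 0.46 ± 0.23 had an unadjusted p of 0.0873 in edgeR. On the TMM-scaled log2 CPM the groups of PKMYT1 did not overlap, whereas its TPM values did. The phosphatase genes CDC25B and CDC25C had log2 fold changes of −0.07 and −0.15.

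Both transcription factors that drive G2/M genes were higher in shTPX2 at an unadjusted p under 0.05. MYBL2, which encodes B-MYB, stood at 127 and 137.25 TPM in the control libraries and at 232.2 and 183.23 TPM in the knockdown libraries, so that both knockdown libraries lay above both controls. The log2 fold change was 0.78 ± 0.20 (unadjusted p = 0.00666, adjusted p = 0.579 from edgeR). The shNC libraries differed by 0.07 on the log2 CPM scale for this gene, and the p without shTPX2 1 was 0.0501 in edgeR. FOXM1 stood at 52.89 and 69.61 TPM in the control libraries and at 81.44 and 76.11 TPM in the knockdown libraries, again without overlap. Its log2 fold change of 0.49 ± 0.19 (unadjusted p = 0.0401, adjusted p = 0.618 from edgeR) was 0.33 against shNC 2 alone, with an unadjusted p of 0.166 in edgeR. Without shTPX2 1 the unadjusted p was 0.152 and without shTPX2 2 it was 0.0678 in edgeR.

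None of the 5 spindle checkpoint genes passed an unadjusted p under 0.05 in edgeR, and the log2 fold changes ran from −0.16 to 0.18. BUB1, a checkpoint kinase at the kinetochore, stood at 20.51 and 53.64 TPM in the control libraries and at 30.09 and 32.21 TPM in the knockdown libraries (log2 fold change −0.12 ± 0.41). TTK, the kinase MPS1 at the top of the checkpoint, stood at 15.31 and 30.44 TPM in the control libraries and at 19.70 and 17.56 TPM in the knockdown libraries. Both knockdown values of each kinase lay between the control values. BUB3, which also serves outside mitosis, stood apart from the other checkpoint genes with 103.48 and 99.38 TPM in the control libraries and 113.43 and 110.88 TPM in the knockdown libraries. Its groups did not overlap, and the log2 fold change was 0.18 ± 0.16 (adjusted p = 0.798 from edgeR).

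The genes of anaphase onset were among the most abundant members per length, UBE2C with up to 362.89 TPM and PTTG1 with up to 355.96 TPM. CDC20, the activator of the anaphase-promoting complex, stood at 116.92 and 221.95 TPM in the control libraries and at 198.13 and 185.67 TPM in the knockdown libraries (log2 fold change 0.31 ± 0.29). UBE2C, the ubiquitin-conjugating enzyme of that complex, stood at 193.93 and 362.89 TPM in the control libraries and at 277.66 and 220.24 TPM in the knockdown libraries (log2 fold change −0.03 ± 0.30). PTTG1, which encodes securin, stood at 127.88 and 355.96 TPM in the control libraries and at 193.47 and 211.01 TPM in the knockdown libraries (log2 fold change −0.12 ± 0.43). In each of the 3 genes the control libraries marked the lowest and highest TPM. On the log2 CPM scale this did not hold for CDC20, where shNC 2 and shTPX2 1 both deviated by 0.25. PTTG1 has close copies in the genome, between which the authors' counting could have split reads.

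In the chromosomal passenger complex, which corrects faulty kinetochore attachments, BIRC5 was the only 1 of 4 genes whose groups did not overlap on the log2 CPM scale. BIRC5, which encodes survivin, stood at 21.38 and 41.09 TPM in the control libraries and at 44.13 and 44.41 TPM in the knockdown libraries. The knockdown values lay above both controls but close to shNC 2. Its log2 fold change was 0.64 ± 0.29 (unadjusted p = 0.0645 from edgeR), and it ranged from 0.28 against shNC 2 alone to 1.14 against shNC 1 alone. With the replicate number as a block, the unadjusted p was 0.0349 in edgeR. AURKB, the kinase of the complex, stood at 38.96 and 105.3 TPM in the control libraries and at 63.16 and 64.83 TPM in the knockdown libraries, a log2 fold change of −0.06 ± 0.41. The log2 fold changes of CDCA8 and INCENP, which encode borealin and the scaffold, were 0.19 and 0.01.

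The 13 centromere and kinetochore genes held the 2 members with the largest fold changes. ZWINT, a kinetochore protein that binds the KNL1 subunit, stood at 47.04 and 62.36 TPM in the control libraries and at 91.3 and 103.63 TPM in the knockdown libraries. Both knockdown libraries exceeded both controls, and the log2 fold change was 0.96 ± 0.19 (unadjusted p = 0.00179, adjusted p = 0.439 from edgeR, adjusted p = 0.0119 from DESeq2). With each library left out in turn it stayed between 0.81 and 1.13, with unadjusted p from 0.000982 to 0.00878 in edgeR. ZWINT lies on chromosome 10 from 56357227 to 56361273 in GRCh38.p14, with 0 exon overlaps with another gene in GENCODE v29. CENPM, a subunit of the constitutive centromere network, stood at 17.3 and 21.73 TPM in the control libraries and at 30.42 and 33.05 TPM in the knockdown libraries, also without overlap. Its log2 fold change was 0.81 ± 0.24 (unadjusted p = 0.0132, adjusted p = 0.579 from edgeR). Without shTPX2 1 its unadjusted p was 0.0532 and without shTPX2 2 it was 0.0714 in edgeR.

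CENPN, which reads the CENPA nucleosome, stood at 32.41 and 34.28 TPM in the control libraries and at 45.63 and 36.83 TPM in the knockdown libraries (log2 fold change 0.40 ± 0.18, unadjusted p = 0.0624 from edgeR). Its exons overlap those of CMC2 on the opposite strand, and without a stated strand setting reads of the 2 genes cannot be told apart. The other 10 genes of this role had log2 fold changes between −0.12 for CENPA and 0.34 for CENPK. CENPA stood at 10.83 and 33.47 TPM in the control libraries and at 15.15 and 22.2 TPM in the knockdown libraries, with both knockdown values between the controls. The 4 genes of the NDC80 complex, which holds the microtubule end, were close together with log2 fold changes of −0.04 for NUF2, 0.13 for NDC80, 0.08 for SPC24 and 0.23 for SPC25. CENPI had the lowest level per length of all members, with 3.59 and 7.55 TPM in the control libraries and 5.32 and 5.28 TPM in the knockdown libraries.

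For chromosome condensation, TOP2A, the topoisomerase that untangles sister chromatids, stood at 36.93 and 87.16 TPM in the control libraries and at 51.72 and 44.25 TPM in the knockdown libraries (log2 fold change −0.24 ± 0.37). The condensin I subunits were fitted on the other side of 0. NCAPG stood at 10.3 and 18.43 TPM in the control libraries and at 14.17 and 15.79 TPM in the knockdown libraries (log2 fold change 0.19 ± 0.27). NCAPH stood at 19.79 and 43.7 TPM in the control libraries and at 38.78 and 37.82 TPM in the knockdown libraries (log2 fold change 0.38 ± 0.33). All 3 had both knockdown values between the control values, and 0 of 3 passed an unadjusted p under 0.05 in edgeR.

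Of the 9 spindle and microtubule genes, 3 were fitted higher and 6 lower, and 0 passed an unadjusted p under 0.05 in edgeR. CKAP5, a microtubule polymerase that cells also use outside mitosis, stood at 60.62 and 89.92 TPM in the control libraries and at 58.25 and 53.36 TPM in the knockdown libraries. Its TPM values in the knockdown lay below both controls, but shNC 1 fell between the shTPX2 libraries on the log2 CPM scale, and the log2 fold change was −0.30 ± 0.22. ASPM, which acts at spindle poles, stood at 8.21 and 17.7 TPM in the control libraries and at 8.75 and 11.01 TPM in the knockdown libraries (log2 fold change −0.23 ± 0.34). GTSE1, a microtubule-binding protein, stood at 13.6 and 27.52 TPM in the control libraries and at 21.42 and 23.64 TPM in the knockdown libraries (log2 fold change 0.35 ± 0.31). HMMR and TACC3, which encode spindle proteins, had log2 fold changes of −0.08 and 0.16.

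The cytokinesis genes had log2 fold changes of −0.13 for ANLN, an actin-binding scaffold of the cleavage furrow, 0.07 for ECT2, which activates RhoA there, and 0.05 for PRC1, which bundles the central spindle. ANLN stood at 39.25 and 86.1 TPM in the control libraries and at 59.03 and 45.3 TPM in the knockdown libraries. ECT2 stood at 36.26 and 68 TPM in the control libraries and at 51.55 and 49.03 TPM in the knockdown libraries. PRC1 stood at 54.74 and 109.94 TPM in the control libraries and at 78.56 and 75.18 TPM in the knockdown libraries. In all 3 genes the control libraries were the lowest and the highest.

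The groups did not overlap for 8 members, all higher in shTPX2 on the log2 CPM scale, namely ZWINT, CENPM, CENPN, MYBL2, FOXM1, PKMYT1, BIRC5 and BUB3. Among all tested genes 19.4% were higher and 20.2% lower without overlap. With 2 libraries against 2, an exact two-sided permutation test of a single gene cannot go below p = 0.333. Exons of 15 members overlap those of a gene on the opposite strand in GENCODE v29, FOXM1, PKMYT1 and CENPN among them, and their values may hold reads of that gene. Exons of 5 members, CENPA and NUSAP1 among them, overlap those of a gene on the same strand, to which the same limit applies.

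TPX2 was set against these genes within each library. The deviation of TPX2 minus the median deviation of the members was 0.41 in shNC 1 and 0.48 in shNC 2, and it was −0.46 in shTPX2 1 and −0.42 in shTPX2 2 on the log2 CPM scale. On this scale the control libraries were close to each other, although the TPX2 levels themselves differed by 0.98 between them. The measure was chosen after the deviations had been seen and carries no test.

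Other mitotic genes were taken from a list of 82, and all 82 were tested. The median log2 fold change was 0.16, with 62 fitted higher and 20 lower. In edgeR 4 of them were higher at an unadjusted p under 0.05 and 0 lower, with 0 at an adjusted p under 0.05, whereas 3.13% of all genes were higher and 4.9% lower at that unadjusted p. The 4 of 82 lie near this background and are named as values only. NCAPH2, a condensin II subunit, stood at 27.21 and 25.99 TPM in the control libraries and at 33.44 and 39.55 TPM in the knockdown libraries (log2 fold change 0.59 ± 0.18, adjusted p = 0.579 from edgeR). CDC25A, the phosphatase that also acts at the start of S phase, had a log2 fold change of 0.78, and CENPU, a centromere subunit, of 0.58. PMF1, a kinetochore subunit, was the other gene among the 4, with a log2 fold change of 0.47. The lower genes with the smallest p were ANAPC13 (−0.19), MYBL1 (−0.51) and CENPC (−0.24), and none of these had an unadjusted p under 0.05 in edgeR.

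Median deviations of these 82 genes were −0.26 in shNC 1 and 0.09 in shNC 2, a narrower range than among the members. The 15 genes of the anaphase-promoting complex and mitotic exit had a median gap of 0.03 between the shNC libraries, and the 12 cohesion genes one of −0.03. The 12 mitotic kinesins had medians of −0.55 in shNC 1 and 0.4 in shNC 2, with 0.1 and 0.09 in the shTPX2 libraries, and both shTPX2 libraries lay between the controls for 9 of them. The 6 subunits of the MCM helicase, which unwinds DNA in S phase, took another order. Their medians were −0.48 and −0.38 in shNC and 0.54 and 0.26 in shTPX2, and for 0 of the 6 did both knockdown libraries lie between the controls. No test of a difference between these lists was made.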

How the data were processed

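RNA of PC9 cells stably carrying shNC or shTPX2 was sequenced as 2 libraries per group, and the labels put all 4 libraries in 1 batch. Per the study's methods, poly(A) RNA was sequenced as paired-end reads, for which the authors name SOAPnuke as the read filter, HISAT2 and Bowtie2 as aligners, and RSEM or StringTie for quantification. The submitters' processing notes name HISAT2, featureCounts, DESeq2 and the GRCh38 build instead, and the annotation and strand setting are not given in the sources used here. For each gene and library the authors deposited an expected count (an estimate of the reads of a gene, not scaled for depth), a TPM value and an FPKM value, over 18134 genes. Expected counts with decimals occurred in at least 1 library for 54.4% of the tested genes. The 6 columns of group means were not used, since the shNC mean of the expected counts equalled the mean of the 2 libraries (within 0.01) in 2.8% of genes and the shTPX2 mean in 3.34%. Among genes with whole counts in all 4 libraries, the shNC mean became whole (within 0.01) when multiplied by 3 in 98.2% and by 2 in 32.4%, and the shTPX2 mean when multiplied by 4 in 97.4% and by 2 in 46.3%. The means may thus be over 3 and 4 libraries, and libraries beyond the 2 per group were not analysed here. The FPKM values were not used either.

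Expected counts were rounded to whole numbers. The edgeR filterByExpr rule kept 14048 genes, and TMM factors set the scale. Differences between shTPX2 and shNC were tested in edgeR 4.0.16 by quasi-likelihood and in limma 3.58.1 after voom in R 4.3.3, with Benjamini-Hochberg adjustment over all tested genes, and DESeq2 1.42.0 was an alternative. All tests were two-sided. Library deviations are of log2 CPM with a prior count of 2. Totals were 20906441 to 21972583 expected counts per library, and members had 133 to 7094 counts in a library, so with a common dispersion of 0.0485 the spread between libraries limits the precision. The tests were run on simulated counts with known folds before use. Genes were drawn independently there, so a joint shift of many genes between libraries of a group was not covered. Nothing says whether the libraries of a group came from separate cultures, so p-values measure the spread between these libraries only.

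The members and lists were chosen with earlier results of these data known. Genes were named by a rule: TPX2, the 3 members of each role with the smallest edgeR p, the 3 members with the largest and the 3 with the smallest fold change, members at an unadjusted p under 0.05, and the 3 other mitotic genes with the smallest p in each direction. Members named outside this rule, the count of members lying between the shNC libraries and the comparison of TPX2 with the members' median were picked with the values in view. Alternatives covered other scalings, filters and tests, the replicate number as a block, and leaving out each library.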

Additional observations from a re-analysis of the deposited data

How the results depend on the processing

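The 4 members at an unadjusted p under 0.05 became 3 with library size only and 5 with DESeq2, and the 38 members between the shNC libraries became 36 to 43 under the other scalings, filters and log2(TPM + 1). For these alternative counts the shares of all genes were not taken. In the main edgeR fit the shares were 3.13% higher and 8.65% between the shNC libraries. DESeq2 gave 1 member higher at an adjusted p under 0.05 in place of 0, where 0.235% of all genes were higher. An adjusted p of at most 0.1 at the study's criteria left 0 of the 6 members. With no filter on low counts TPX2 had a log2 fold change of −0.79 and missed an unadjusted p under 0.05.

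The left-out library mattered most. Without 1 library at a time, TPX2 ranged from −1.21 (without shNC 1) to −0.24 (without shNC 2) and kept an unadjusted p under 0.05 in edgeR in only 1 of the 4 fits, that without shNC 1, and the median of the members from −0.35 to 0.64 for the same 2 libraries. Members at an unadjusted p under 0.05 numbered 1 (without shTPX2 1) to 31 (without shNC 2) higher and 0 to 14 (without shNC 1) lower. At the study's criteria 3 (without shNC 1) to 42 (without shNC 2) were higher and 0 to 20 (without shNC 1) lower. Members without overlap numbered 8 to 51 (without shNC 2) higher and 0 to 39 (without shNC 1) lower, a count that a lone control raises by its construction, since 33.1% to 38.6% of all genes then fall in each direction. For these ranges no cause was tested.

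With the replicate number as a block, the median of the members was 0.13, 5 members were higher at an unadjusted p under 0.05 and 0 lower, 6 were higher at the study's criteria, and TPX2 had a log2 fold change of −0.73. Members fitted lower numbered 10 in place of 21. Shares of all genes were not taken for the block fit, so its counts have no background beside them. The deviations of same-numbered libraries correlated with r = 0.18 across all genes, which are not independent replicates, and nothing in the labels says that a number marks a shared culture, so the numbers were not taken as pairs.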
